A study of Mus musculus with 6 samples.

Results

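The mouse mitochondrial genome carries 37 genes, and all 37 were listed in single-cell data from sorted colon tumor cells, of 19069 genes in all. They were taken as every row assigned to the mitochondrial chromosome: 13 protein-coding genes, 2 rRNA genes and 22 tRNA genes. The count tables write the protein-coding genes without a hyphen (mtNd1, mtCo1) and the RNA genes with one (mt-Rnr2, mt-Tm), so that a search for the prefix with a hyphen finds 24 of the 37. Single plates listed 33, 33, 32, 36, 34 and 36 of them, in the order of plates 1 to 6, and 27 were listed on all plates. The 10 genes missing from at least 1 plate were all tRNA genes.

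The cells came from tumors of mice given azoxymethane, a colon carcinogen, and dextran sulfate sodium, which causes colitis. All mice carried homozygous floxed alleles of Zeb1, a transcription factor of mesenchymal cell states, on a C57BL/6 background. Fib-Ctrl mice (plates 1, 3 and 4) were negative for the Col6a1Cre transgene and Fib-deltaZeb1 mice (plates 2, 5 and 6) were positive, which deletes Zeb1 in the fibroblasts that express Cre. The ages of the animals were not used here. Viable cells negative for EPCAM, CD45 and CD31 were sorted into the wells of 1 plate per mouse and measured by SORT-seq, in which RNA is primed at stretches of A, given a molecular barcode and counted near the 3′ end. Plate and mouse are therefore the same unit, with 3 mice per genotype.

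Of 2304 wells, 2222 held at least 100 genes and were analysed, 1097 from Fib-Ctrl and 1125 from Fib-deltaZeb1 mice, without any limit on mitochondrial content. Plates held 1573280 to 3698240 transcripts in these wells, spike-in RNA left out, and plate 6 was sequenced in another run, which cannot be told apart from its mouse. Each plate uses the same 384 well barcodes by design. In fibroblast-gated wells Zeb1 stood at 103, 104 and 67.1 CPM (transcripts scaled to a fixed total) on plates 1, 3 and 4 and at 56.3, 68.7 and 59.9 CPM on plates 2, 5 and 6, and the genotypes overlapped. Counts taken near the 3′ end need not lie in the deleted part, so that these values do not check the labels.

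Mitochondria transcribe both strands of their circular genome into long precursors. These are cut mainly at the tRNAs that lie between the other genes, which frees rRNAs and mRNAs. Most of these then receive short A tails. The 2 rRNAs belong to the mitochondrial ribosome. The 13 protein-coding genes encode subunits of respiratory complexes I, III and IV and of the ATP synthase, whose other subunits come from nuclear genes. In single-cell work the share of mitochondrial transcripts is widely used as a filter on damaged or emptied cells.

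The windows around the longest run of A in the rRNA genes are shown because the assay primes on A and rRNAs are counted here. Positions are GRCm38 coordinates, sequences are the RNA strand as DNA letters from GENCODE vM21, and capitals mark the run of A. No exons, introns or UTRs apply to these genes, and both rRNA genes are on the plus strand. mt-Rnr2 lies at chrM:1094-2675 and mt-Rnr1 at chrM:70-1024.
mt-Rnr2, chrM:1462-1521: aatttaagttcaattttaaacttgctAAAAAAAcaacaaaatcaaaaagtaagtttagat
mt-Rnr1, chrM:678-737: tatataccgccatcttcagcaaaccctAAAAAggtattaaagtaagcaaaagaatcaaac

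The longest run was 7 bases in mt-Rnr2 and 5 in mt-Rnr1, and the 20-base window richest in A held 16 and 15 A. In the 13 protein-coding genes the longest run ranged from 3 bases in mtNd6 to 8 in mtNd2. The part of such runs in the counts was not tested.

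Protein-coding genes follow with their last 30 bases, because 3 of the 13 end without a full stop codon, which the A tail completes. Capitals mark the annotated stop codon or what is there of it. mtNd6 is shown as the 1 protein-coding gene on the minus strand.
mtCo3, chrM:9361-9390: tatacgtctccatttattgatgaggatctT
mtNd4, chrM:11515-11544: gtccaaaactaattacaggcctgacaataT
mtCytb, chrM:15259-15288: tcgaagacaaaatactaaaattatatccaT
mtAtp6, chrM:8578-8607: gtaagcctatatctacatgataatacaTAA
mtNd6, chrM:13552-13581: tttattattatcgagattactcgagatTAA

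The 4 tRNA genes with the highest mean percent of transcripts over plates are given whole, with the anticodon in capitals, since tRNAs made up almost none of the counts and these 4 most of that. They carry methionine, tryptophan, glycine and leucine.
mt-Tm, chrM:3845-3913: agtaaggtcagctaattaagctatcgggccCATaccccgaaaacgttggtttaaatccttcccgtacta
mt-Tw, chrM:4950-5016: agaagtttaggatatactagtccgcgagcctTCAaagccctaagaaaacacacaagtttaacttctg
mt-Tg, chrM:9391-9458: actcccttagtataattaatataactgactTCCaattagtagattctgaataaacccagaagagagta
mt-Tl1, chrM:2676-2750: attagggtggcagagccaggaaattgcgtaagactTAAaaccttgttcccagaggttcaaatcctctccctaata

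Mitochondrial genes gave 2059260 of the transcripts in the analysed wells, 11.99% of all. Protein-coding genes made up 66.5% of them, rRNAs 33.4% and tRNAs 0.0661%. The 37 genes together took 8.56%, 15.5% and 14.9% of the transcripts of Fib-Ctrl plates 1, 3 and 4 and 7.25%, 9.90% and 21.6% of Fib-deltaZeb1 plates 2, 5 and 6. Plate 2 was the lowest and plate 6 the highest of all, both Fib-deltaZeb1, with the Fib-Ctrl plates between them. Medians over wells were lower on most plates, at 8.60%, 8.32% and 12.2% for plates 1, 3 and 4 and 6.70%, 8.07% and 14.6% for plates 2, 5 and 6.

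**Figure D1:**
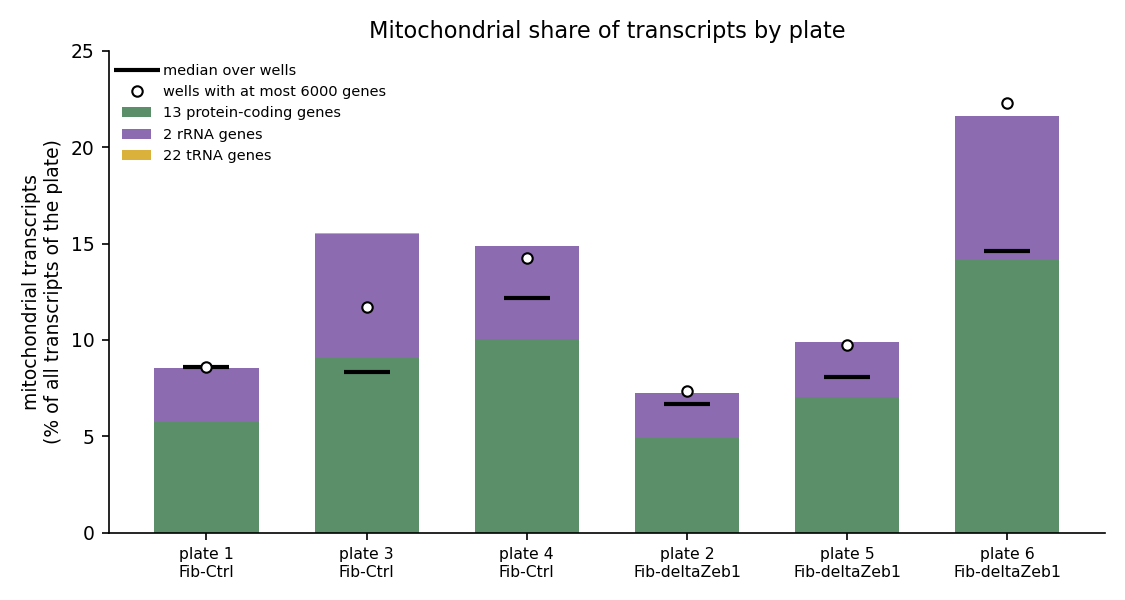
Bars show the percent of all transcripts of a plate that came from the protein-coding, rRNA and tRNA genes of mitochondria, 1 plate per mouse, with the median over wells as a line and the value over wells with at most 6000 genes as a circle. Plate 3 falls from 15.5% to 11.7% without its wells above 6000 genes, and the tRNA part, at most 0.0154%, is too thin to see.

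Few very rich wells carried much of these counts. On plate 3, 1 well with 11416 genes held 46.7% of the mitochondrial transcripts of the plate. Single wells held 23.5% of them on plate 5, 12.3% and 11.0% on plate 4 and 7.68% on plate 6. In all, 16 wells had over 6000 genes, 3, 3, 2, 4, 1 and 3 on plates 1 to 6, and whether they hold several cells was not tested. In the richest well of plate 3, almost every possible molecular barcode was seen for mt-Rnr2, from which the correction for shared barcodes estimated 34065 transcripts. Over plate 3 this correction raised the mitochondrial total 1.49-fold and the nuclear total 1.03-fold. The plate held 73751 transcripts of mt-Rnr2 in all, so that this number rests in part on the correction in 1 well.

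The protein-coding class took 5.74%, 9.08% and 10.1% of the transcripts of plates 1, 3 and 4 and 4.92%, 7.03% and 14.1% of plates 2, 5 and 6. The rRNA class took 2.82%, 6.43% and 4.79% on the Fib-Ctrl plates and 2.32%, 2.86% and 7.47% on the Fib-deltaZeb1 plates. The tRNA class stood at 0.00547%, 0.0154% and 0.00842% and at 0.00476%, 0.00568% and 0.0141% in the same order. In each class the genotypes overlapped, with plate 2 the lowest. Plate 6 was the highest in the protein-coding and rRNA classes, and plate 3 in the tRNA class.

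Within the mitochondrial transcripts mt-Rnr2, the large rRNA, was the highest gene on every plate. It made up 26.0%, 30.2% and 24.9% of them on plates 1, 3 and 4 and 25.2%, 23.7% and 27.3% on plates 2, 5 and 6. mtAtp6, an ATP synthase subunit of the proton channel, followed with 12.3%, 13.1% and 15.4% on the Fib-Ctrl plates and 12.9%, 15.7% and 15.98% in Fib-deltaZeb1 mice. mtCo1, the catalytic core of complex IV, made up 10.9%, 9.49% and 11.8% and then 11.0%, 11.5% and 10.8%. These 3 genes kept their order on every plate, and for each the genotypes overlapped.

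mtCo2, which takes electrons from cytochrome c, stood at 8.39%, 8.03% and 9.55% of mitochondrial transcripts in Fib-Ctrl and at 7.73%, 8.70% and 8.64% in Fib-deltaZeb1 mice. mt-Rnr1, the small rRNA, gave 6.84%, 11.2% and 7.24% and then 6.80%, 5.21% and 7.25%. Its value on plate 3, the plate with the single rich well, was the highest by far.

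The other subunits of complex I ranked lower and unevenly. mtNd4 made up 6.67% ± 0.815 (SD, n = 6 plates) of mitochondrial transcripts, mtNd1 4.32% ± 0.713, mtNd2 4.09% ± 1.04, mtNd5 1.85% ± 0.217, mtNd3 1.52% ± 0.197 and mtNd4l 0.517% ± 0.0369. mtCytb, the only subunit of complex III in this genome, made up 6.84% ± 0.560, mtCo3 of complex IV 4.72% ± 0.594 and mtAtp8 of the ATP synthase 2.10% ± 0.476. mtNd4l overlaps mtNd4 by 7 bases and mtAtp8 overlaps mtAtp6 by 43 on the same strand, and how reads in such overlaps were assigned is not given in the sources used here.

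mtNd6, also of complex I, stood far below the rest. Plates 1, 3 and 4 held 38.0, 33.0 and 42.0 transcripts of it and plates 2, 5 and 6 held 33.0, 43.0 and 73.0, which is 0.00967% to 0.0147% of mitochondrial transcripts. It was seen in 186 of the 2222 wells, whereas mt-Rnr2 was seen in 2221. Its last 14 bases overlap the end of mtNd5 on the other strand, and whether counting used strand is not given in the sources used here.

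**Figure D2:**
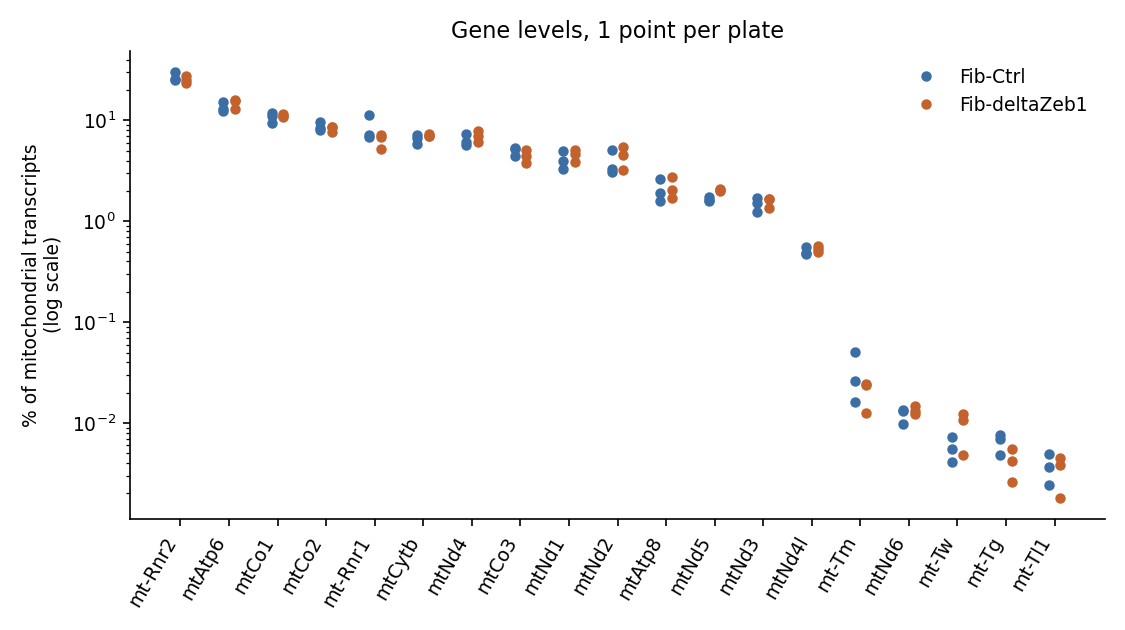
Each point is 1 plate and gives a gene's percent of mitochondrial transcripts on a log scale, for the protein-coding and rRNA genes and the 4 tRNA genes highest by mean percent of all transcripts, coloured by genotype. Levels run from mt-Rnr2 at 23.7% to 30.2% down to mtNd4l near 0.5%, and mtNd6 lies among the tRNA genes.

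Per length the order changed. On a scale of percent of mitochondrial transcripts per kb, mtAtp6 stood at 20.9 ± 2.39 (SD, n = 6 plates) and was above mt-Rnr2, at 16.6 ± 1.44, on 6 of 6 plates. mtCo2 followed at 12.4 ± 0.921 and lay below mt-Rnr2 on all plates. mtAtp8 (10.3 ± 2.33), mt-Rnr1 (7.77 ± 2.09) and mtCo1 (7.05 ± 0.507) came next, and neighbours among them differed by less than the spread of their difference or changed order between plates. mtCo3 and mtCytb, at 6.03 and 5.98, could not be put in order, with mtCo3 higher on 3 plates. A molecule is counted once near its 3′ end, so that the values per kb serve only to set genes of different length side by side.

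The plus strand carries 28 genes and the minus strand 9, and the latter gave 506 transcripts, 0.0246% of the mitochondrial total. The 8 tRNA genes on the minus strand had 9 to 73 transcripts each with a median of 30.5, and the 14 on the plus strand 2 to 496 with a median of 45.0. tRNA genes together gave 1362 transcripts in all wells. Of these mt-Tm gave 496 or 36.4%, mt-Tw 148, mt-Tg 110 and mt-Tl1 72.0, while mt-Tl2, the other leucine tRNA, gave 2. The mt-Tm gene was seen in 7.87% to 21.8% of the wells of a plate, so that 1 plate holds 41.0 to 125 of its transcripts, and tRNA levels rest on few molecules everywhere.

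Genotypes were compared first by the share per plate, which asks whether loss of Zeb1 in fibroblasts goes with another mitochondrial content of the sorted cells. The share was 12.99% ± 3.84 (SD, n = 3 mice) in Fib-Ctrl and 12.9% ± 7.64 in Fib-deltaZeb1, a difference of -0.07 percentage points (exact two-sided permutation test, p = 1, with 0.1 the smallest p that 3 against 3 mice allow). The classes differed by 0.391 points for protein-coding genes (p = 1), -0.458 for rRNAs (p = 0.9) and -0.00159 for tRNAs (p = 0.6) in the same exact test. Fibroblast-gated wells alone, defined further on, gave 10.9% ± 2.96 against 10.3% ± 4.16 (p = 0.8, exact permutation test). Relative to spike-in RNA, mitochondrial transcripts stood at 0.723, 0.705 and 1.50 per spike-in transcript on plates 1, 3 and 4 and at 0.872, 1.05 and 1.38 on plates 2, 5 and 6 (p = 0.6, exact permutation test). None of these differences was larger than the spread between mice.

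Among the 14 genes above 0.1% of mitochondrial transcripts, 1 (7.14%) had genotypes that did not overlap in this percent. Over all 37 genes there were 4 (10.8%), the other 3 being the tRNA genes mt-Tv, mt-Ts2 and mt-Ty with at most 23.0 transcripts on a plate. In percent of all transcripts, the scale that nuclear genes share, genotypes did not overlap for 371 of 12154 genes (3.05%) and for 0 of the 23 mitochondrial genes among them. mtNd5, a proton-pumping subunit of complex I, made up 1.74%, 1.60% and 1.63% on plates 1, 3 and 4 (Fib-Ctrl) and 2.03%, 2.08% and 2.02% on plates 2, 5 and 6 (Fib-deltaZeb1). The means were 1.65% ± 0.0727 and 2.04% ± 0.0321 (SD, n = 3 mice each), and the exact permutation test gave p = 0.1, its smallest value, and an adjusted p of 0.754 over the 14 genes. Of the 14 genes 0 passed at an adjusted p of 0.05 and 0 at an unadjusted one, which this design cannot reach. In the fit over all genes and wells mtNd5 had a log2 fold change of 0.28 ± 0.53 (SE), which did not pass the test.

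The fit across all genes, with transcripts summed per mouse and tested by edgeR's quasi-likelihood test, called 0 of 12154 genes in all wells and 0 of 10079 in fibroblast-gated wells at an adjusted p of 0.05, which is 0% called in both. At an unadjusted p of 0.05 it counted 77 and 141 genes, and DESeq2 called 0 and 0. Of the 37 mitochondrial genes 23 passed the filter on low counts in all wells and 17 in fibroblast-gated wells, 0 of them were called, and 0 had an unadjusted p below the threshold. In all wells 14 of the 23 lay above 0 on the log2 scale (Fib-deltaZeb1 over Fib-Ctrl) and 9 below, with a median of 0.02 beside -0.01 over all genes tested. In fibroblast-gated wells 6 of 17 lay above and 11 below, with a median of -0.06 beside 0.00. The extremes were -1.65 and 0.51 in all wells and -0.35 and 0.32 in fibroblast-gated wells.

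Values of the highest rRNA and the highest mRNA gene show the precision in fibroblast-gated wells. mt-Rnr2 had a log2 fold change of -0.07 ± 0.42 (SE) and mtAtp6 of 0.00 ± 0.49, with adjusted p = 0.9996 for both in edgeR's quasi-likelihood test. These errors are larger than the changes, so that shifts in either direction were not detectable at this spread between mice. The sign of the mt-Rnr2 value turned with barcode counts in place of estimated transcripts, with spike-in library sizes and without wells above 6000 genes.

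Nuclear genes of the same machinery were described from 8 lists, and 0 of their genes were called in either set of wells. In all wells 33 of 36 tested nuclear subunits of complex I lay above 0 (median log2 fold change 0.24), and so did 4 of 4 of complex II (0.16), 8 of 9 of complex III (0.31), 10 of 10 of complex IV (0.16) and 15 of 15 of the ATP synthase (0.32), beside a median of -0.01 over all genes tested. In fibroblast-gated wells the counts were 15 of 36 (-0.02), 2 of 4 (-0.01), 1 of 9 (-0.16), 0 of 10 (-0.26) and 4 of 15 (-0.05), beside 0.00 over all genes. The counts above 0 were thus lower in the fibroblast-gated wells for each of these complexes. The cells of other types differed between plates, with 21, 286 and 25 neutrophil-gated wells on plates 1, 3 and 4 and 85, 83 and 175 on plates 2, 5 and 6, and their part in this was not tested. Genes for transcription and processing of mitochondrial RNA had medians of 0.29 (15 of 20 above 0) and 0.12 (8 of 14), mitochondrial biogenesis 0.18 (4 of 7) and 0.20 (3 of 5), and mitochondrial stress 0.33 (8 of 9) and 0.07 (6 of 8).

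Members with the highest level in each list are given for fibroblast-gated wells as log2 fold changes with SE, with adjusted p = 0.9996 in edgeR's quasi-likelihood test for every one. They were -0.22 ± 0.20 for Ndufc2 of complex I, and 0.01 ± 0.21 for Sdha and -0.04 ± 0.23 for Sdhb of complex II. Complex III had Uqcrh at -0.28 ± 0.22 and Uqcrq at -0.16 ± 0.28, complex IV had Cox8a at -0.26 ± 0.30 and Cox6a1 at -0.23 ± 0.26, and the ATP synthase had Atp5b at -0.02 ± 0.25 and Atp5a1 at 0.05 ± 0.22. Hsd17b10, a part of mitochondrial RNase P, and Slirp, which stabilises mitochondrial mRNAs, stood at -0.19 ± 0.21 and -0.35 ± 0.22. Yy1 and Gabpa, transcription factors of nuclear mitochondrial genes, stood at -0.20 ± 0.22 and 0.55 ± 0.27, and Atf4 and Hspe1 of the stress list at 0.28 ± 0.28 and -0.05 ± 0.27. None of these values passed the test.

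Wells were then assigned to cell types by 8 lists of 10 marker genes, none of them encoded in mitochondria. A well went to the list with the most detected markers, if these were at least 3 and no other list tied. The fibroblast gate (Col1a1, Dcn, Pdgfra and others) took 980 wells, the neutrophil gate (S100a8, S100a9, Csf3r) 675, the epithelial gate (Epcam, Krt8, Krt18) 212 and the pericyte gate (Rgs5, Notch3) 106. Smooth muscle had 27 wells, other immune cells 9, enteric glia 7 and endothelium 1, and 205 were not assigned. Neutrophils carry CD45 and epithelium carries EPCAM, which the sort was to remove. Transcripts of Ptprc, which encodes CD45, were seen in 67.0% of neutrophil-gated and 4.18% of fibroblast-gated wells, and Epcam in 71.7% of epithelial-gated and 7.55% of fibroblast-gated wells. The 10 neutrophil markers summed to 6.76% to 11.8% of nuclear transcripts in neutrophil-gated wells of a plate and to 0.0154% to 0.0925% in fibroblast-gated wells. The 10 fibroblast markers summed to 0.930% to 2.61% in pericyte-gated wells, beside 3.52% to 5.75% in fibroblast-gated wells. The 10 pericyte markers summed to 0.703% to 1.09% in pericyte-gated wells, of which plate 5 had only 5. These markers and Epcam are on the lists that set the gates, so that their values describe the gates and do not check them. Ptprc is not on the neutrophil list.

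The mix of rRNA and mRNA in mitochondrial transcripts differed by cell type. In neutrophil-gated wells rRNAs made up 59.98%, 49.2% and 34.8% of mitochondrial transcripts on Fib-Ctrl plates 1, 3 and 4 and 57.6%, 43.6% and 42.7% on Fib-deltaZeb1 plates 2, 5 and 6. In fibroblast-gated wells of the same plates they made up 33.0%, 28.6% and 29.7% and 31.95%, 29.5% and 28.96%. The neutrophil-gated value was higher on 6 of 6 plates, and its lowest, on plate 4, still lay above the highest fibroblast-gated one.

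The difference was 17.7 percentage points on average ± 8.33 (SD, n = 6 plates), from 5.02 to 26.95, with an exact two-sided sign-flip permutation p = 0.03125, the smallest that 6 plates allow, and 0.0469 after adjustment over the 3 pairs of types that could be tested. Against pericyte-gated wells, with 30.4%, 24.4% and 24.7% on plates 1, 3 and 4 and 24.5%, 34.7% and 31.1% on plates 2, 5 and 6, it was 19.6 points ± 10.7 and again positive on 6 of 6 plates (exact permutation p = 0.03125, adjusted 0.0469). Pericyte-gated and fibroblast-gated wells differed by -1.98 points ± 4.77, lower on 4 and higher on 2 plates (exact permutation p = 0.34375, adjusted 0.344). Among these 3 gates the rRNA percent thus stood apart in the neutrophil gate, while the pericyte and fibroblast gates differed by less than the spread between plates. In the 9 wells of other immune cells, 1 or 2 on a plate, it ranged from 31.3% to 57.7% by plate. They were too few for a test.

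Depth moved with this result. Neutrophil-gated wells had a median of 889 to 1923 nuclear transcripts by plate and fibroblast-gated wells 4219 to 11362, and the median neutrophil-gated well held 52.1 to 196 mitochondrial transcripts. In wells of 1000 to 3000 nuclear transcripts, on the 5 plates with at least 5 such wells of both types, rRNAs made up 58.97%, 57.7%, 33.8%, 43.4% and 43.5% of mitochondrial transcripts in the neutrophil gate and 34.5%, 39.2%, 34.7%, 33.7% and 24.1% in the fibroblast gate (plates 1, 2, 4, 5 and 6). At this depth the neutrophil-gated value was higher on 4 of 5 plates and the mean difference 14.3 points ± 9.98, and plate 4 had the fibroblast-gated value slightly higher (exact permutation p = 0.125, with 0.0625 the smallest for 5 plates). These fibroblast-gated wells were rich in mitochondrial transcripts, at 14.6% to 59.04% of all by plate against 4.90% to 12.96% in the neutrophil gate, so that matching nuclear depth did not match the share. In wells under 10% mitochondrial transcripts the difference was 22.1 points ± 4.58 and positive on 6 of 6 plates (exact permutation p = 0.03125).

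The nuclear 45S rRNA gene Rn45s made up 2.08% to 3.03% of nuclear transcripts in neutrophil-gated wells by plate and 2.32% to 4.23% in fibroblast-gated wells, and was lower in the neutrophil gate on 5 of 6 plates. Malat1, a long RNA kept in the nucleus, made up 0.549% to 0.791% and 0.290% to 0.482%. The ratio of mt-Rnr1 to mt-Rnr2 stood at 0.188 to 0.271 in neutrophil-gated and 0.229 to 0.297 in fibroblast-gated wells, and was lower in the neutrophil gate on 5 of 6 plates, all but plate 3.

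**Figure D3:**
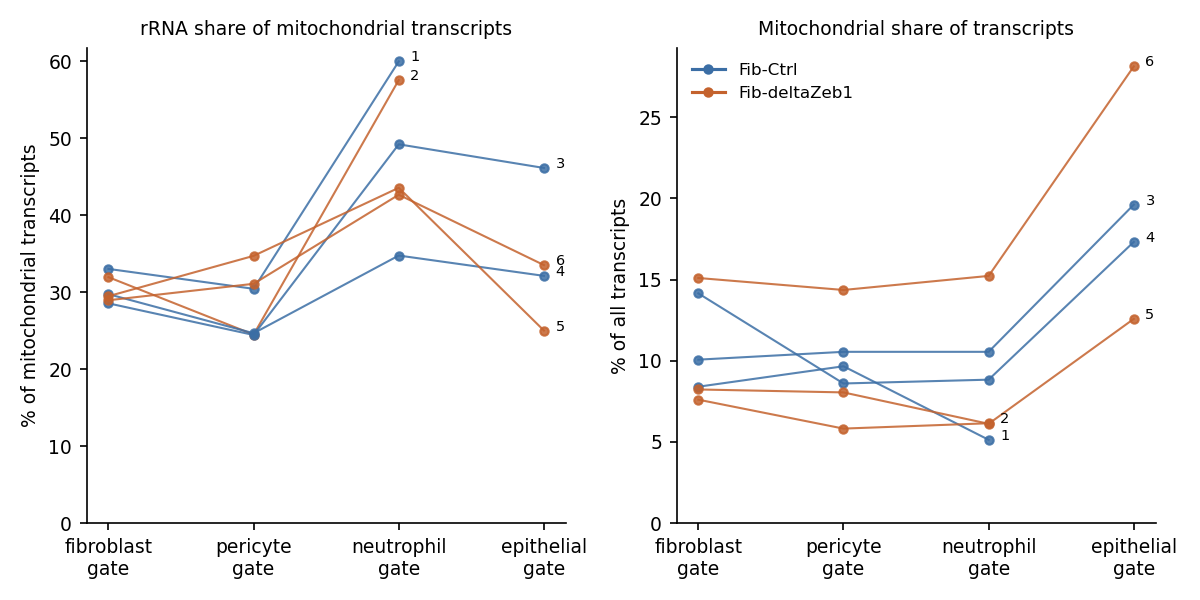
Lines join the values of 1 plate over the cell type gates with at least 5 wells on it, numbered by plate and coloured by genotype, with the rRNA percent of mitochondrial transcripts on the left and the mitochondrial percent of all transcripts on the right. Every line rises from the pericyte to the neutrophil gate on the left, and the epithelial gate is highest on the right on the 4 plates that have it.

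Both rRNAs and most protein-coding genes took part in this difference. As a percent of mitochondrial transcripts mt-Rnr2 stood at 38.7% ± 8.01 in neutrophil-gated and 24.0% ± 1.44 in fibroblast-gated wells (SD, n = 6 plates), and mt-Rnr1 at 9.29% ± 1.89 and 6.31% ± 0.573, both higher in the neutrophil gate on 6 of 6 plates. Because the percents add up, some genes had to be lower. The gene with the lowest ratio was mtAtp8, at 0.454%, 1.17% and 1.37% on plates 1, 3 and 4 and 0.625%, 1.04% and 1.11% on plates 2, 5 and 6 in the neutrophil gate. In the fibroblast gate it stood at 1.58%, 2.33% and 2.64% and at 1.71%, 2.33% and 2.32%. On each plate its level in neutrophil-gated wells was 0.286 to 0.521 times the fibroblast-gated level. These neutrophil-gated levels rest on 10 to 615 transcripts of mtAtp8 per plate, fewest on plate 1. The gene shares 43 bases with mtAtp6, which was higher in the neutrophil gate on 2 plates. How reads in that overlap were assigned is not given, so that the 2 genes cannot be read as separate mRNA levels.

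mtCo3 followed, with 2.71% ± 0.521 in the neutrophil and 5.04% ± 0.551 in the fibroblast gate, 0.393 to 0.652 times. Also lower on 6 of 6 plates were mtNd1 (2.94% ± 0.378 and 4.58% ± 0.356), mtNd2 (2.90% ± 0.598 and 4.76% ± 0.697), mtCo1 (7.59% ± 0.992 and 10.9% ± 0.486) and mtNd4 (5.31% ± 0.266 and 7.19% ± 0.515). In contrast, mtNd5 (1.84% ± 0.463 and 1.94% ± 0.249) and mtAtp6 (12.7% ± 4.45 and 14.8% ± 1.82) were lower on 4 plates and higher on 2. mtCo2, mtCytb, mtNd3 and mtNd4l were lower on 5 of 6 plates. These percents fall when rRNAs rise. As a percent of protein-coding mitochondrial transcripts, mtCo2 and mtNd5 were higher in the neutrophil gate on every plate. By plate, mtCo2 stood at 12.3% to 15.2% against 11.5% to 13.8% in the fibroblast gate. mtAtp8, mtCo3, mtNd1 and mtNd2 stayed lower on every plate. The direction of mtCo1, mtNd4, mtAtp6, mtCytb, mtNd3 and mtNd4l changed between plates. No test was made on this scale.

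Gene by gene the differences in percent of mitochondrial transcripts missed the threshold. All 8 genes with 1 direction on 6 plates had an exact permutation p = 0.03125 the smallest that 6 plates allow, and an adjusted p of 0.0547 over 14 genes, so that 0 of 14 were called. With pericyte-gated against fibroblast-gated wells 0 of 14 genes were on 1 side on all plates, and the lowest adjusted p was 0.875. The gene by gene comparison was chosen after the data had been seen.

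**Figure D4:**
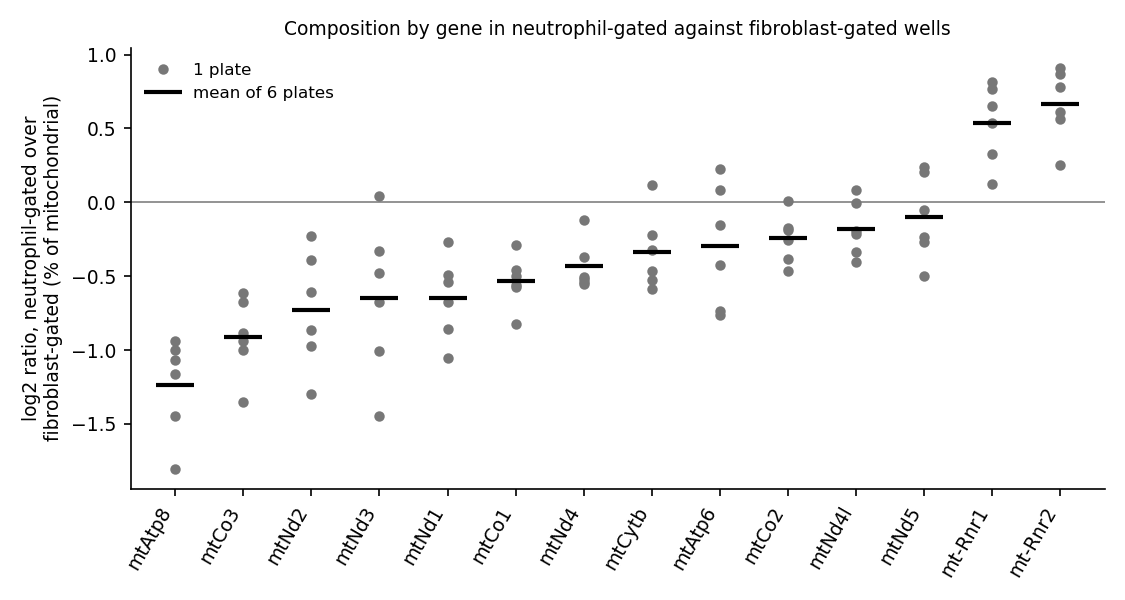
Points give, for each plate, the log2 ratio of a gene's percent of mitochondrial transcripts in neutrophil-gated over fibroblast-gated wells, with the mean of 6 plates as a line and genes ordered by it. All points of mt-Rnr1 and mt-Rnr2 lie above 0, and all points of mtAtp8, mtCo3, mtNd2, mtNd1, mtCo1 and mtNd4 lie below 0.

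Over all wells of a type, no pair of cell types passed the test in its total mitochondrial share. It was 8.40%, 10.1% and 14.2% of transcripts in fibroblast-gated wells of plates 1, 3 and 4 and 7.60%, 8.23% and 15.1% on plates 2, 5 and 6. Neutrophil-gated wells had 5.13%, 10.6% and 8.84% and 6.15%, 6.12% and 15.2%, and pericyte-gated wells 9.66%, 10.5% and 8.60% and 5.82%, 8.05% and 14.4%. All 3 types were highest on plate 6, and the range over plates was wider than the mean difference between any pair of types. The neutrophil-gated minus fibroblast-gated difference was -1.92 points ± 2.17 (exact permutation p = 0.125, adjusted 0.375), the pericyte-gated minus fibroblast-gated one -1.08 ± 2.42 (p = 0.34375, adjusted 0.5, exact), and the neutrophil-gated minus pericyte-gated one -0.838 ± 2.05 (p = 0.5, adjusted 0.5, exact).

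With medians over wells in place of pooled wells the neutrophil-gated share was lower than the fibroblast-gated one on 6 of 6 plates, by 2.99 points on average (exact permutation p = 0.03125, adjusted 0.0938). With at least 1000 nuclear transcripts per well it was also lower on 6 of 6 plates, by 2.69 points on average (exact permutation p = 0.03125, adjusted 0.0938). At 1000 to 3000 nuclear transcripts it was lower on 5 of 5 plates, by 20.8 points ± 14.97 (exact permutation p = 0.0625, the smallest for 5 plates), so that the size of this difference depended on the depth of the wells compared. Epithelial-gated wells had 19.6% and 17.3% on Fib-Ctrl plates 3 and 4 and 12.6% and 28.1% on Fib-deltaZeb1 plates 5 and 6, above the other 3 types on each of these plates. Other plates had under 5 such wells, so that no test was made. Their rRNA percent of mitochondrial transcripts was 46.1%, 32.1%, 25.02% and 33.5% in the same order, and on plates 3, 4 and 6 it was above the fibroblast-gated value.

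The relation of mitochondrial content to depth was described within each plate. Across wells the number of mitochondrial transcripts rose with the number of nuclear ones, with Spearman's rho of 0.725, 0.814, 0.636, 0.527, 0.879 and 0.605 on plates 1 to 6 (361 to 381 wells each). Their share fell, with rho of -0.429, -0.107, -0.343, -0.538, -0.0658 and -0.336 and Pearson's r with log10 nuclear transcripts of -0.484, -0.241, -0.220, -0.539, -0.177 and -0.262. Wells of a plate share a library and the nuclear count is part of the share's denominator, so that these values are descriptions with no test. Within fibroblast-gated wells the share had a rho of -0.518, -0.330, -0.579, -0.678, -0.522 and -0.687, lower than over all wells on each plate, and within neutrophil-gated wells of -0.448, -0.572, -0.576, -0.555, -0.675 and -0.540.

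With the wells of a plate cut into 4 equal bins by nuclear transcripts, the pooled share was 24.1%, 12.4%, 8.25% and 6.80% from the poorest to the richest bin on plate 1 and 14.1%, 10.0%, 7.29% and 6.26% on plate 2. Plate 4 went from 49.4% through 29.4% and 14.9% to 11.8%, and plate 6 from 55.5% through 35.5% and 25.7% to 16.2%. Plate 3 had 23.3%, 18.3%, 11.5% and 15.6%, and plate 5 had 13.8%, 10.1%, 8.80% and 10.1%, so that both rose again in the last bin, which holds their richest wells. The poorest bin had the highest pooled share on every plate. By the median well this did not hold on plate 2, with 6.41%, 7.33%, 7.22% and 6.18%. The rRNA percent of mitochondrial transcripts was also higher in the poorest than in the richest bin on each plate. The gap was widest on plate 2 (64.3% and 28.1%) and narrowest on plate 3 (40.8% and 39.2%), where the middle bins were higher still, at 49.0% and 54.3%. Bins mix cell types, and neutrophil-gated wells had fewer nuclear transcripts and a higher rRNA percent than fibroblast-gated ones. The part of cell type in these gaps was not tested.

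**Figure D5:**
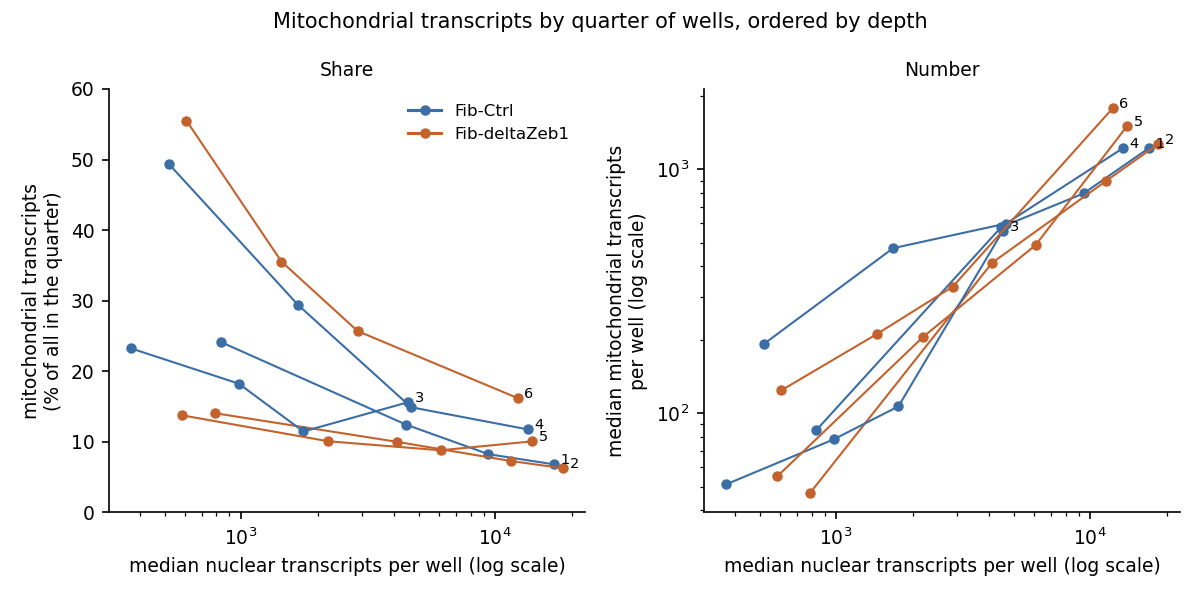
Each line is 1 plate, cut into 4 bins of wells by nuclear transcripts, with the median nuclear transcripts of a bin on a log axis against the pooled mitochondrial percent on the left and the median number of mitochondrial transcripts on the right, also log. Pooled shares are highest in the poorest bin of every plate, up to 55.5% on plate 6, although the number of mitochondrial transcripts is lowest there.

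Within a cell type the rRNA percent also moved with the share of the well. In fibroblast-gated wells it was 25.5% on average over plates in wells with a share of 0 to 5%, then 28.0% at 5 to 10%. It was 30.7% at 10 to 20%, 38.0% at 20 to 50% and 32.9% at 50% or more. The last value averages 3 plates, while all plates together had 37 such wells. In epithelial-gated wells it was 15.5%, 23.7%, 27.1%, 32.7% and 38.4% over the same bands. Neutrophil-gated wells had 51.1%, 48.0%, 41.8% and 40.1%, and 47.2% in the last band. That last value comes from 1 plate, while all plates together had 11 such wells. The averages thus rose over all bands in epithelial-gated wells, and over all but the last in fibroblast-gated wells. From the lowest to the highest band they cover 2, 3, 3, 3 and 2 plates for epithelial-gated wells. For fibroblast-gated wells they cover 4, 6, 6, 6 and 3 plates, so that differences between plates enter these rises. Averages use only the plates with at least 5 wells in a band, 1 to 6 plates, and no test was made.

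The counting of mitochondrial genes decides how many wells pass a limit on their share. Under a limit of 10% of transcripts 1241 of 2222 wells remained when all 37 genes were counted, 1707 with the 13 protein-coding genes and 1927 with the 24 genes whose names carry the hyphen. On plates 1, 3 and 4 all 37 genes left 62.2%, 60.1% and 37.7% of the wells and on plates 2, 5 and 6 80.9%, 63.8% and 29.8%. The 24 genes with a hyphen left 91.8%, 87.2% and 75.6% and 93.5%, 96.3% and 75.3%. Plates 4 and 6 lost most wells either way, 1 of each genotype.

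At the upper end 113 wells had a share of at least 50%, 41 of them on plate 4 and 47 on plate 6, and 62 of the 113 were among the 557 wells of the poorest bins. The highest share of a well was 95.5%, 88.5% and 92.6% on plates 1, 3 and 4 and 86.5%, 58.2% and 91.4% on plates 2, 5 and 6. Wells with under 100 genes, 82 in all, had a median of 8 to 14 mitochondrial transcripts by plate, beside 97.2 to 685 in the wells analysed.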

How the data were processed

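SORT-seq plates of 3 Fib-Ctrl and 3 Fib-deltaZeb1 mice were used, 1 plate of 384 wells each. Reads were mapped by the authors with bwa against GRCm38 transcripts, and the submitters' processing notes also name Cell Ranger 2.1.1. One deposited table per plate holds counts, the whole number of distinct barcodes by gene and well. The other deposited table holds estimated counts (expected counts) of transcripts, which the authors derived from barcode counts by a correction for 4096 barcodes. Neither is normalized.

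Wells with at least 100 genes were kept and spike-in RNA was left out. Estimated counts were summed per mouse and rounded. Genotypes were tested by the quasi-likelihood method of edgeR 4.0.16, with TMM scaling, low counts removed by filterByExpr and p adjusted after Benjamini and Hochberg (threshold 0.05). DESeq2 1.42.0 served as the alternative tool. The edgeR fit was tried on simulated data, and the outcome is not reported here. Shares were compared by exact two-sided permutation over mice, and cell types by exact sign flips over plates, for types with at least 5 wells on at least 5 plates (SciPy 1.17.1). Alternatives were barcode counts, other limits on genes per well, medians over wells, limits on nuclear transcripts per well, other library sizes, no filter on low counts and leaving out each mouse.

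Named genes are the 13 protein-coding and 2 rRNA genes, the 4 tRNA genes highest by mean percent of all transcripts and the 2 highest members of each nuclear list, of which 1 is not reported here. The members and lists were chosen with earlier results of these data known. Wells hold a single sorted cell by design, and no doublet caller was run. How many tumors of a mouse entered a plate is not given in the sources used here. Fewer cells of a type and less RNA per cell cannot be told apart in values summed over all wells. Sequences and positions are from GENCODE vM21 (GRCm38).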

Additional observations from a re-analysis of the deposited data

How the results depend on the processing

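No paired analysis was possible because replicate numbers follow the order of the samples and pair no mice. Differences between genotypes in share changed sign with the setting. None passed the exact permutation test, but none could, since 0.1 is the smallest p that 3 against 3 mice allow. The total share (-0.07 points) became 1.05 with barcode counts, 0.0940 with medians over wells, 0.0187 with at least 500 genes and 1.62 with at most 6000 genes, and -4.41 to 2.77 with 1 mouse left out. The protein-coding share (0.391) became -0.353 in fibroblast-gated wells and -2.32 to 2.28 with 1 mouse left out. The rRNA share (-0.458) became 0.221 with barcode counts and 0.284 with at most 6000 genes, and -2.08 to 0.492 with 1 mouse left out. The tRNA share (-0.00159) became 0.000673 in fibroblast-gated wells and 0.000520 with at most 6000 genes, and -0.00455 to 0.00124 with 1 mouse left out, while its median over wells was 0 on all plates and gave no value. Transcripts per spike-in (0.128) ranged from -0.0114 to 0.388 with 1 mouse left out. In fibroblast-gated wells the log2 fold change of mt-Rnr2 (-0.07) became 0.15 with spike-in library sizes, 0.0174 with barcode counts and 0.0480 with at most 6000 genes, and -0.39 to 0.14 with 1 mouse left out, and that of mtAtp6 (0.00) ranged from -0.50 to 0.29. The cause of these changes was not tested. The neutrophil-gated minus fibroblast-gated rRNA percent (17.7 points) was 14.3 at 1000 to 3000 nuclear transcripts. There plate 4 went the other way (exact sign-flip permutation p = 0.125 over 5 plates, with 0.0625 the smallest possible). With 1 plate left out the difference was 15.8 to 20.2, and against pericyte-gated wells (19.6) 17.0 to 21.8. These passed no threshold, which 5 plates cannot reach. Barcode counts, medians, the limit at 6000 genes and wells under 10% kept the direction of the neutrophil-gated difference and its side of the threshold. The limits at 6000 genes, the depth window, 10% and medians over wells were here chosen after the data had been seen. The median rho of share and depth (-0.339) was -0.124 with at least 500 genes and -0.551 in fibroblast-gated wells. Calls among mitochondrial genes stayed at 0 in every alternative, and with spike-in library sizes, where the median of all genes moved by 0.34 in all wells and 0.22 in fibroblast-gated wells, 7 other genes were called in all wells. tRNA genes and mtNd6 have few counts per plate, which limits any comparison of them.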
